A study of Mus musculus with 8 samples.

Results

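The pairs described here are tandem polyadenylation sites (PASs) that lie less than 300 nt apart in the 3′-most exon of a gene. A gene was a member if a table listed exactly 2 PASs for it, both of the 3′-most exon, at that distance. The table of AS and NT held 1122 such genes of 10452, the table of RC4 and NT 1087 of 10081, and the table of RC8 and NT 1080 of 10441. In all, 1304 of 10690 genes were members in at least 1 table. Of these, 894 were members in all 3 tables, and 822 of them had the same pair of PASs throughout.

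The data come from NIH3T3, an established line of mouse fibroblasts kept proliferating in medium with calf serum. NT cells were not treated, AS cells received 250 μM sodium arsenite for 1 h, and RC4 and RC8 cells were washed after the same treatment and grown without arsenite for another 4 h (RC4) or 8 h (RC8). Each condition gave 1 QuantSeq FWD library of total RNA. The sources do not say whether the conditions came from separate cultures, so that no value below has a replicate and no difference was tested across cultures. All 3 comparisons share the NT library. The libraries had between 22.4 M and 23.0 M reads on genes, of which the members held 13.8% to 14.7%. All 10 fibroblast markers on a short list were listed in the tables, with a summed level of 15240 RPM (NT), 15825 RPM (AS), 12051 RPM (RC4) and 9137 RPM (RC8), where RPM are reads scaled to the same total on genes in every library. Of these sums, S100a4 alone held 10272 RPM in NT and 5715 RPM in RC8. The log2 changes of single markers in RC8 ranged from −1.79 (Col3a1) to 0.06 (Fn1). The 14 epithelial, endothelial, haematopoietic and muscle markers were not listed, which means fewer than 50 reads and not 0. The 4 arsenite-inducible genes that were listed summed to 919 RPM (NT), 2244 RPM (AS), 11706 RPM (RC4) and 3573 RPM (RC8).

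Cleavage and polyadenylation of a pre-mRNA is directed mainly by a hexamer a short way upstream of the PAS, most often AATAAA or ATTAAA in DNA letters, and by U-rich or GU-rich elements downstream of it. Where a last exon holds more than 1 PAS, the proximal site gives an mRNA with a short 3′UTR and the distal site one with a longer 3′UTR, while the protein usually stays the same. The stretch between both sites can carry elements for RNA-binding proteins and microRNAs. Arsenite causes oxidative and proteotoxic stress, and cells that recover from it are known for altered 3′UTR choice.

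QuantSeq FWD reads start some distance upstream of the poly(A) tail. MAAPER, the authors' program, therefore assigns them to known PASs with a model of the distance between read and PAS. For sites this close together, the same read can fit either site, and the division of the reads between the sites is an estimate. The counting error given below treats each estimated isoform read as counted and leaves that uncertainty out.

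No pair was closer than 100 nt. Distances had a median of 153 nt in the AS table, 151 nt in the RC4 table and 153 nt in the RC8 table, and 47.6% to 48.5% of the pairs lay less than 150 nt apart. Among the 1390 distinct pairs, the proximal PAS fell in an annotated UTR in 1280 cases (92.1%) and in coding sequence in 64 (GENCODE vM1 on mm9). The distal PAS fell in a UTR in 949 cases (68.3%) and outside annotated genes in 414. A gene was annotated on the opposite strand at either PAS of 173 pairs.

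The stretches of 30 nt just upstream of both PASs are printed for 6 pairs, since this is where the cleavage signal lies. They are taken from the mm9 genome in transcript orientation, and capitals mark AATAAA or ATTAAA or, where both are missing, the single-base variant of AATAAA nearest to the PAS, AAAAAA not counted. Pfdn4, Slc25a17 and Zcchc8 are pairs whose distal share was higher after stress. Atxn2 is one whose distal share was lower in both recovery libraries. Rpl36al was called in opposite directions in RC4 and RC8, and Fth1 has the shortest distance found and is among the 8 pairs with most NT reads. The windows are chr2:170344411-170344440 and chr2:170344537-170344566 (+) for Pfdn4, chr15:81149458-81149487 and chr15:81149346-81149375 (−) for Slc25a17, chr5:124149996-124150025 and chr5:124149773-124149802 (−) for Zcchc8, chr5:122264713-122264742 and chr5:122264899-122264928 (+) for Atxn2, chr12:70283946-70283975 and chr12:70283726-70283755 (−) for Rpl36al, and chr19:10059453-10059482 and chr19:10059553-10059582 (+) for Fth1, each with the proximal window first.
Pfdn4 proximal: agaattttcatttAATTAAtggaaacgcct
Pfdn4 distal: tatgtcatgttATTAAAatcggttaaacag
Slc25a17 proximal: ttggtgtttgacataggttttttttaatac
Slc25a17 distal: ctcAATAAAttgtcagcacacatacagaaa
Zcchc8 proximal: ataagcttaatatatcactttttaAAGAAA
Zcchc8 distal: ggtttAATAAAttagttttcttacacatga
Atxn2 proximal: ttgctgctattaccgctttaaaaaaaaaaa
Atxn2 distal: gataatataaAATAAAaactaaaaaaaaaa
Rpl36al proximal: ggcagacaaagccaatctttcgaaagaagg
Rpl36al distal: ctgctagagAATAAAgttactgttaatgat
Fth1 proximal: gtgactttactggtcactgaggcagtgcat
Fth1 distal: catttcttcaAATAAAgaattttggtaccc

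In each of these 6 pairs the distal PAS alone had AATAAA or ATTAAA within 40 nt upstream. The proximal PAS of Rpl36al lies in coding sequence, all the other PASs of the 6 pairs except the distal PAS of Slc25a17 and of Fth1 lie in annotated UTRs, and those 2 lie outside annotated genes. An A tract, meaning genomic A runs at or just past the site, was found at both PASs of Atxn2 and at the proximal PAS of Rpl36al, and at 7.77% of the proximal and 4.89% of the distal PASs of all close pairs.

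A missing signal at the proximal PAS was common among all close pairs. Over the 1390 pairs, 307 proximal PASs had AATAAA or ATTAAA within 40 nt upstream (22.1%, 95% Wilson interval 20% to 24.3%), compared with 827 distal PASs (59.5%, 56.9% to 62.0%). In the 1216 tandem pairs at 300 to 1500 nt, the shares were 44.7% (42.0% to 47.5%) for the proximal and 63.8% (61.1% to 66.5%) for the distal PAS. Windows of the same length 200 nt farther upstream of the proximal PAS held either hexamer in 2.59% of close pairs. No single-base variant was found either at 52.7% of the proximal PASs of close pairs, compared with 29.4% of those at 300 to 1500 nt. By pair, 194 close pairs (14.0%) had a signal at both PASs, 113 (8.13%) at the proximal PAS only, 633 (45.5%) at the distal PAS only and 450 (32.4%) at neither.

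Other elements differed less between the sites. TGTA, the core of the motif bound by cleavage factor I, occurred within 100 nt upstream of 47.4% of proximal and 54.1% of distal PASs of close pairs, and TGTGT within 40 nt downstream of 12.8% and 20%. All motifs were searched on the transcript strand, and for pairs this close the windows of the proximal and distal PAS can overlap. The stretch between the PASs had a GC content of 39.3% in close pairs, 42.8% in pairs at 300 to 1500 nt and 44.2% in pairs over 1500 nt. ATTTA, the core of AU-rich elements, occurred 2.59 times per kb in the stretch of close pairs, compared with 2.05 and 1.72 in the longer classes, and the same letters on the opposite strand occurred 3.54 times per kb. For TGTANATA, which Pumilio proteins bind, the densities were 0.385, 0.257 and 0.202 per kb on the transcript strand.

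**Figure D1:**
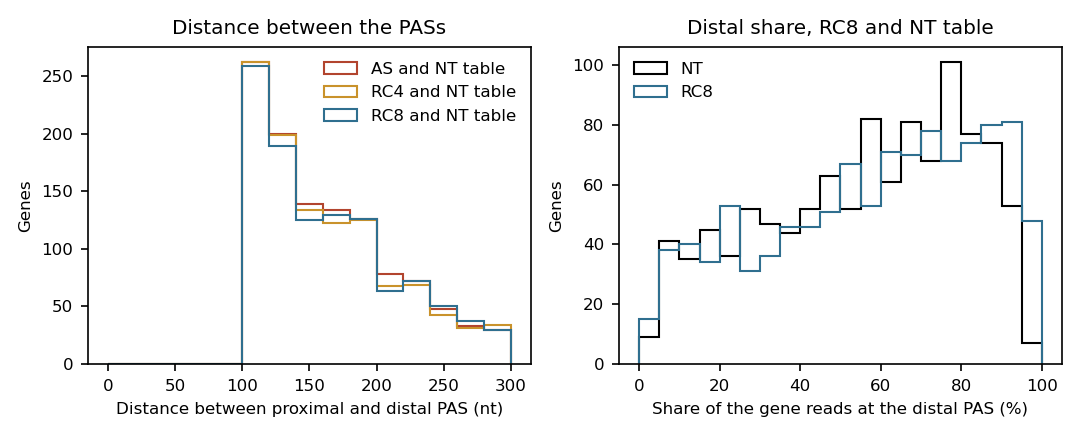
Left, number of genes by the distance between both PASs in nt, in bins of 20 nt, for each of the 3 tables. Right, number of genes by the share of the gene's reads at the distal PAS in percent, in bins of 5 percentage points, for NT (black) and RC8 (blue) in their table. Distances start at 100 nt, and the median distal share is 59.2% in NT and 62.5% in RC8.

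In NT cells, both sites of a close pair were usually in use, which follows largely from the choice of members. A PAS was listed only if it held a minimum share of the reads in either library of the table. The share of the gene's reads at the distal PAS had a median of 59.2% in the table of AS, 58.4% in that of RC4 and 59.2% in that of RC8, and the distal PAS held more than 50% of the reads in 59.7% to 61.4% of the genes. The quartiles of the NT share were 36.8% and 76.6% in the AS table. Over the 822 genes with the same pair in all tables, the median distal share was 59.4% in NT (mean of the tables), 59.0% (AS), 60.0% (RC4) and 62.9% (RC8). The number of these genes with a distal share over 90% was 39 (NT), 47 (AS), 76 (RC4) and 98 (RC8), and the number with a share under 10% was 30, 38, 43 and 38. The recovery libraries thus had more genes near full use of the distal PAS than NT.

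The NT library was quantified once in each table, and this shows how far a value can move without a change of sample. For genes with the same pair in 2 tables, the NT log2 ratio of distal to proximal reads differed by a median of 0 and by 0.04 to 0.05 at the 95th percentile. The largest difference was 0.46.

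Of the 8 members with the most NT reads, 7 were called in no comparison, by the rule for calls given below. Calls were few among pairs with many reads in any case. Of 4 groups of about equal size by NT reads, the highest had 1.07% called lower and 1.43% higher in AS. These were 2.21% and 6.99% in RC4, and 5.93% and 13.7% in RC8. A count of 7 among 8 is not set apart from these shares. Fth1, the heavy chain of ferritin, had 46.4% of its reads at the distal PAS (NT), then 44.5% (AS), 47.0% (RC4) and 41.2% (RC8), and its gene level was 1.17 higher on the log2 scale in RC8. Hint1, a nucleotide-binding phosphoramidase, had 86.9% (NT), 86.6% (AS), 87.3% (RC4) and 87.9% (RC8). Serbp1, an mRNA- and ribosome-binding protein, had 13.3% (NT), 12% (AS), 11.2% (RC4) and 13.2% (RC8). None of these 3 pairs was called, and the same held for the next 4. Lgals1, a secreted lectin, had 41.3% (NT), 35.7% (AS), 39.4% (RC4) and 37.9% (RC8). For Ddb1, a subunit of a ubiquitin ligase in DNA repair, these were 67.5%, 63.5%, 66.2% and 65.3%, and for Rpl13a, a ribosomal protein, 16.4%, 15.9%, 14.5% and 15.3%. Psap, the precursor of the saposins of the lysosome, had 46.4% (NT, AS table), 50.2% (AS), 42.6% (RC4) and 47.9% (RC8), while its gene level was 1.18 higher on the log2 scale in RC8. Eef1a1, the elongation factor that brings aminoacyl-tRNA to the ribosome, differed from these 7, with 65.0%, 71.7%, 74.0% and 80.3%. Pkm, a glycolytic enzyme, had 78.6% in both NT and RC4. Eef1a1, Fth1, Hint1, Lgals1 and the ribosomal proteins have processed pseudogenes or near copies, and up to 20 mapping positions per read were allowed by the authors, so their levels are less certain.

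To compare conditions, the relative expression difference (RED) was computed for every pair as the log2 ratio of distal to proximal reads in the treated library minus that in NT. A negative RED means relatively more of the proximal isoform after treatment. A pair was called if its RED was at least 1 in size, which is 2-fold in the ratio, and at least 3 times its counting error. In AS, 29 of 1122 close pairs were called lower (2.58%) and 46 higher (4.10%), compared with 4.59% and 2.36% of all 2504 tandem pairs at any distance. RC4 had 46 of 1087 lower (4.23%) and 93 higher (8.56%), compared with 12.3% and 5.23% of all 2446 tandem pairs. In RC8, 69 of 1080 were lower (6.39%) and 176 higher (16.3%), compared with 8.91% and 8.5% of all 2481 tandem pairs. In each comparison, more close pairs were called higher than lower, whereas in AS and RC4 all tandem pairs together had more lower than higher calls.

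The middle of the distribution moved little. The median RED of close pairs was −0.04 for AS (interval −0.06 to −0.01, 95% by order statistics), 0.01 for RC4 (−0.02 to 0.05) and 0.10 for RC8 (0.05 to 0.15). The medians over all tandem pairs were −0.14, −0.22 and −0.09. Spread grew over the 3 comparisons, with quartiles at −0.30 and 0.25 for AS, −0.32 and 0.37 for RC4, and −0.38 and 0.64 for RC8. Over all tandem pairs the span between the quartiles grew as well, with 0.57 for AS, 0.81 for RC4 and 0.87 for RC8. A RED beyond 3 counting errors was found in 31.1%, 37.2% and 53.3% of the close pairs, compared with 26.8%, 40.8% and 43.8% of all tandem pairs. These intervals cover the spread over genes and not that between cultures.

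RED depended on the distance between the PASs. Pairs at 300 to 1500 nt had median REDs of −0.14 (−0.17 to −0.12), −0.32 (−0.36 to −0.29) and −0.16 (−0.22 to −0.13), and pairs over 1500 nt had −0.37, −0.63 and −0.23. The intervals of the close pairs overlapped neither class in any comparison. In RC4 the median was 0.03 from 100 nt, 0.02 from 150 nt, −0.06 from 200 nt, −0.23 from 300 nt, −0.32 from 500 nt and −0.43 from 1000 to 1500 nt, each bin ending where the next one starts. In RC8 the values were 0.06, 0.17 and 0.10 in the 3 bins under 300 nt and −0.20, −0.14 and −0.21 in the next 3. The pairs nearest to the limit on either side had REDs of both signs. Just inside it in RC8, Snw1, a spliceosome-associated coregulator, had a RED of 1.09 and Rsrp1 −0.26. Just outside it, Cox11, an assembly factor of cytochrome oxidase, had −1.73 and Ugcg, the glucosylceramide synthase, 0.82.

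**Figure D2:**
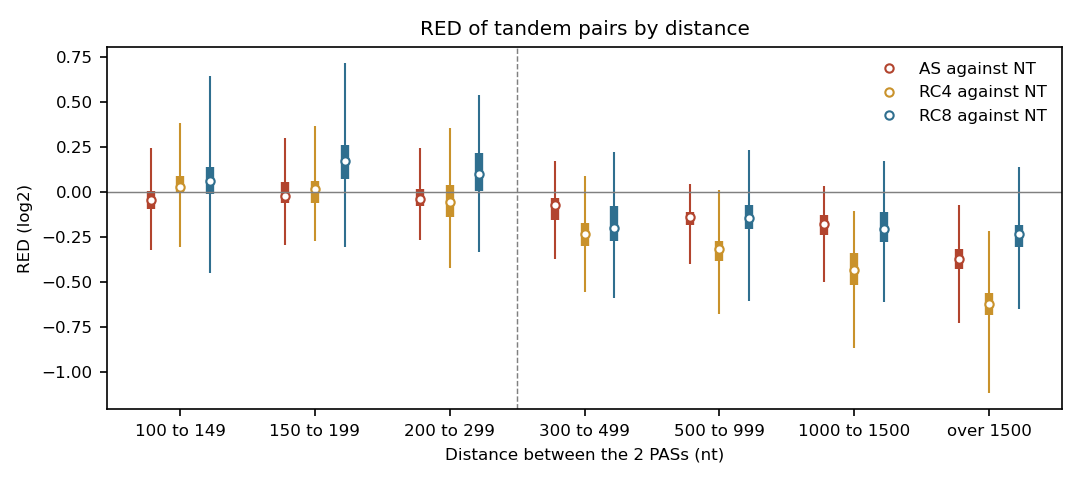
RED on the log2 scale (y axis) by distance between both PASs in nt (x axis) for AS, RC4 and RC8 against NT. Circles are medians over genes, thick bars their 95% order-statistic intervals and thin bars the quartiles, and the dashed line marks 300 nt. Medians left of the line lie between −0.06 and 0.17, and those right of it are all below 0.

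Reads of both isoforms show which one moved. Levels are RPM of the isoform, and changes of level are log2 ratios to NT. Among the 176 pairs called higher in RC8, the proximal isoform changed by a median of −1.34 and the distal isoform by 0.16. The proximal isoform was at least 2-fold lower in 120 of the 176 pairs, the distal isoform at least 2-fold higher in 21, and the larger of both moves was that of the proximal isoform in 140. In RC4 the medians were −2.03 and −0.22, with the proximal isoform at least 2-fold lower in 79 of 93 pairs, and in AS −1.08 and 0.38, with 27 of 46. Of the pairs called higher, 46 in RC8, 19 in RC4 and 3 in AS had a PAS under 5% in 1 library. These were listed through the library in which that PAS had the higher share. A large change of its isoform is thus partly built in, and the counts above include these pairs. The pairs called higher had a median NT distal share of 60.4% in AS, 71.4% in RC4 and 66.2% in RC8. From a share above 50%, a rise of the ratio at constant gene level moves the proximal isoform more on the log2 scale than the distal one, so that the larger move of the proximal isoform follows in part from the share at the start. In the pairs called lower, both isoforms moved by closer amounts. Their medians were 0.47 for the proximal and −0.74 for the distal isoform with AS, 0.49 and −1.02 with RC4, and 0.75 and −0.59 with RC8. Over all members, the PAS with more than 50% of the reads was another one than in NT in 75 genes in AS (42 of them to the distal PAS), 89 in RC4 (52) and 105 in RC8 (69), and 58, 64 and 60 of these pairs were not called. Fewer reads can come from less of the transcript or from a read assigned to the neighbouring site, and these cannot be told apart here.

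**Figure D3:**
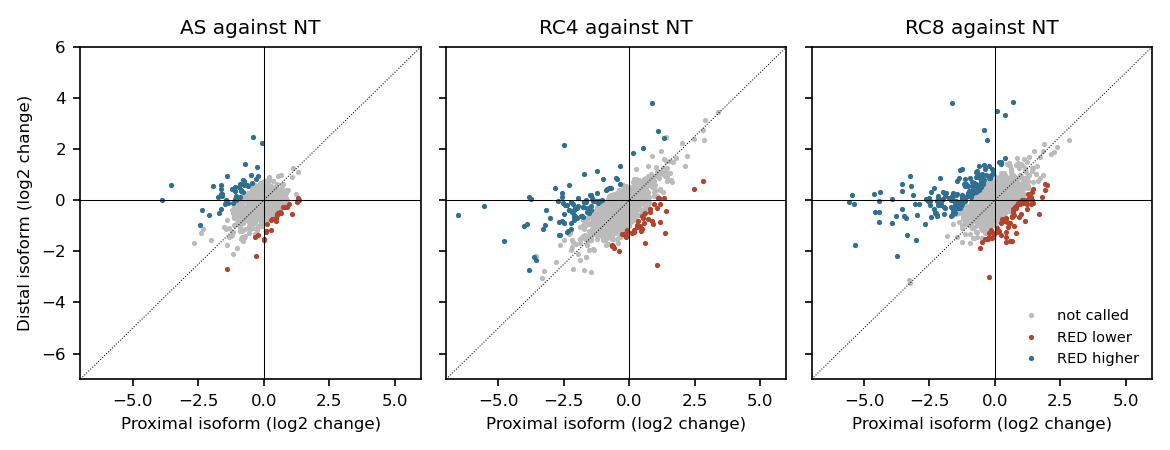
Change of the proximal isoform (x axis) and of the distal isoform (y axis) against NT on the log2 scale for every close pair, 1 panel per comparison. Blue points have a called higher RED, red points a called lower RED, grey points neither, and the dotted line marks equal change. Blue points lie mainly to the left, with medians of −1.08, −2.03 and −1.34 on the x axis in AS, RC4 and RC8.

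Gene level was counted in the same way. It was at least 2-fold higher in 3 and lower in 23 of 1122 members in AS, compared with 0.622% and 3.22% of all genes. In RC4 these were 40 and 141 of 1087 members, compared with 3.69% and 13.4%, and in RC8 37 and 35 of 1080, compared with 2.97% and 3.53%. The median gene of the RC4 library was at −0.30 on the log2 scale of total reads, and scaled to it 64 members were higher and 62 lower. With that scaling, the proximal isoform was at least 2-fold lower in 72 of the 93 pairs called higher in RC4, and the median change of the distal isoform was 0.08. In RC8, in 5 equal groups by change of gene level, the 216 members with the lowest change had a median RED of 0.22 (0.09 to 0.36) with 58 called higher, and the 216 with the highest had 0.02 (−0.17 to 0.14) with 23 called higher. Gene level and RED are made from the same reads, so this relation, looked at after the values had been seen, is a description.

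Splicing factors with a called RED had a higher one. Prpf38a, a component of the spliceosome, had 64.8% of its reads at the distal PAS (NT), then 82.2% (AS), 96.6% (RC4) and 97.1% (RC8). Its RED was 1.33 after AS, 3.95 in RC4 and 4.19 in RC8, with counting errors of 0.27 and 0.23, and its proximal isoform changed by −3.83 in RC4 and −3.24 in RC8. In both recovery libraries its proximal PAS was under the listing limit of roughly 5% of the reads. It was listed there through NT, so that part of this change is built in. Hnrnpm, which binds pre-mRNA, had 76.8%, 84.5%, 91.4% and 93.5% on 19018 to 22564 reads, with a RED of 1.70 in RC4 and 2.12 in RC8. All treated libraries thus lay above NT for both genes. Tra2a, a splicing activator, had 68.8% (NT), 79.2% (AS), 90.1% (RC4) and 87.0% (RC8), and its paralog Tra2b 53.1%, 55.3%, 61.2% and 70.8%. Srsf9, an SR protein, had 75.7% in NT and 68.5% in RC4, which was not called, and 88.1% in RC8, which was. Of the 19 members among splicing factors, 0 were called lower in each comparison, and 1, 3 and 5 were called higher in AS, RC4 and RC8, compared with 4.10%, 8.56% and 16.3% of all close pairs called higher and 2.58%, 4.23% and 6.39% called lower. At these shares a list of 19 has few calls, and its counts are not set apart from them here. Their median RED was 0.23, 0.06 and 0.13.

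The highest REDs among pairs with at least 200 reads and shares of at least 5% belonged to genes of many roles. Pfdn4, a subunit of the prefoldin chaperone, had 44.4% distal reads (NT), then 61.2% (AS), 83.8% (RC4) and 89.0% (RC8). Its proximal isoform was at 29.0 RPM (NT), 14.9 RPM (AS), 4.87 RPM (RC4) and 3.33 RPM (RC8), whereas the distal isoform stayed between 23.1 and 27.0. The RED of Pfdn4 was 0.98 for AS, 2.70 ± 0.17 for RC4 and 3.35 ± 0.19 for RC8, where ± gives the counting error. Nid1, a protein of the basement membrane, had 69.2% (NT, AS table), 84.4% (AS), 94.6% (RC4) and 93.3% (RC8). Its RED was 1.27, 2.81 and 2.70, and its NT share differed by table, with 71.3% in that of RC4 and 68.2% in that of RC8. Morc3, a nuclear ATPase, had 67.8%, 89.2%, 94.4% and 89.6%, with a RED of 1.97 for AS and 2.04 for RC8 and a higher one for RC4. Zcchc8, a subunit of the complex that targets nuclear RNA to the exosome, had 68.2%, 82.1%, 94.6% and 90.6%, and its proximal isoform was at 12.2 RPM in NT and 0.752 RPM in RC4. In all 4 pairs the proximal isoform was lower in each treated library than in NT.

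**Figure D4:**
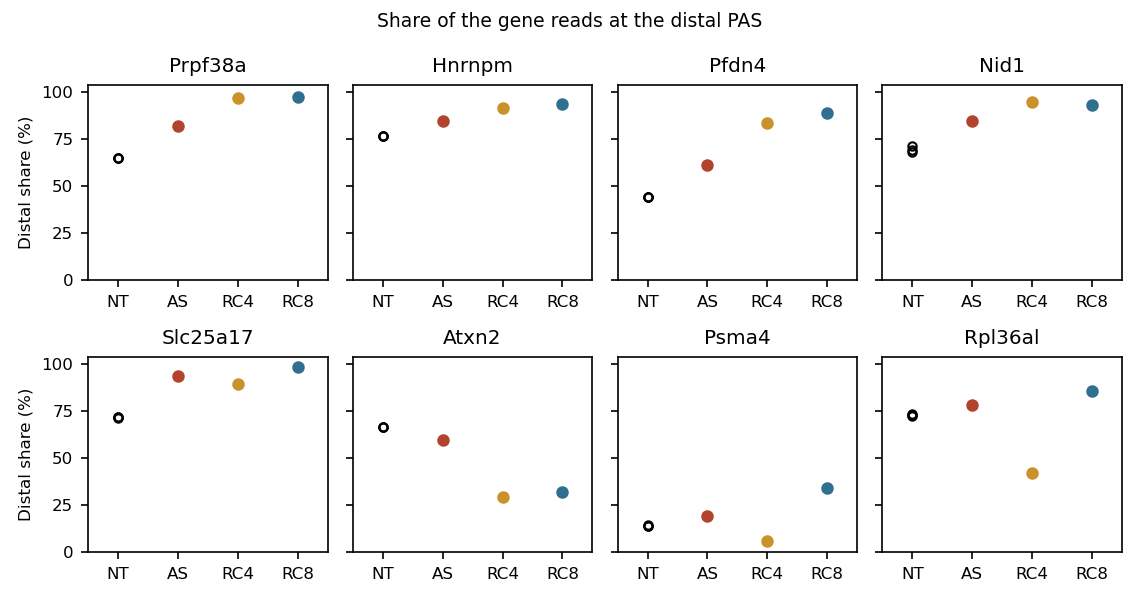
Share of the gene's reads at the distal PAS in percent (y axis) in NT, AS, RC4 and RC8 for 8 close pairs. Open circles are the NT library as quantified in the 3 tables, and filled circles are 1 library each. Prpf38a, Hnrnpm, Pfdn4, Nid1 and Slc25a17 lie above NT in every treated library, Atxn2 below it, and Psma4 and Rpl36al below it in RC4 and above it in RC8.

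By the same limits, the highest REDs of AS were those of Tubb2b, Slc25a17, Slc23a2 and Anapc10. Tubb2b, a β-tubulin, had 9.35% distal reads in NT and 43.4% in AS, a RED of 2.89 ± 0.08, with its distal isoform at 18.2 RPM in NT and 102 RPM in AS. In RC8 its share was 47.5%. Here the distal isoform moved, unlike in most pairs called higher, and Tubb2b has close paralogs with which it may share reads. Slc25a17, a carrier of the peroxisome membrane, had 72.2% (NT), 93.6% (AS), 89.7% (RC4) and 98.5% (RC8). Its proximal isoform was at 21.7 RPM in NT and 1.03 RPM in RC8. Slc23a2, a vitamin C transporter whose PASs lie 100 nt apart, had 22.2% (NT), 58.9% (AS), 27.5% (RC4) and 40.6% (RC8). Anapc10, a subunit of the anaphase-promoting complex, had 68.0%, 91.0%, 68.8% and 92.2%, so that RC4 was at the level of NT and AS and RC8 were above it. In RC8, 2410089E03Rik had 79.8% compared with 35.9% in NT.

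The lowest REDs by these limits were smaller in size than the highest. Atxn2, an RNA-binding protein of stress granules, had 66.5% distal reads (NT), then 59.7% (AS), 29.3% (RC4) and 32.3% (RC8). Its RED was −2.26 ± 0.21 in RC4 and −2.07 ± 0.20 in RC8, and in RC4 its proximal isoform went from 7.73 to 11.6 and its distal isoform from 15.3 to 4.80 RPM. Dgkz, a diacylglycerol kinase, had 89.5% in NT, 74.4% in RC4 and 65.0% in RC8. Tmtc4, an enzyme of the endoplasmic reticulum, was called lower in all 3 comparisons, with 70.4% (NT, AS table), 51.9% (AS), 53.6% (RC4) and 49.5% (RC8). Atp7a, a copper transporter, had 28.3% (NT), 15.4% (AS), 10.1% (RC4) and 17.5% (RC8), while its gene level was 1.07 higher on the log2 scale in RC4. Zfp142 had 56.4% in NT and 29.2% in RC4. For AS the lowest REDs were those of Fbxo38, a ubiquitin ligase subunit, with −1.30, Cdk16 with −1.27, Comtd1 with −1.22 and Tmtc4 with −1.14, and in RC8 Ssfa2 had −1.84 and Alg9, a mannosyltransferase of protein glycosylation, −1.74.

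Mt2, Cryab and Ftl1 were at least 2-fold higher in level in both recovery libraries, and none of their close pairs was called. Mt2, a metallothionein that binds heavy metals, rose from 510 RPM (NT) to 1211 RPM (AS), 5607 RPM (RC4) and 1905 RPM (RC8), and its distal share was 84.8%, 86.1%, 85.4% and 85.5%. Cryab, a small heat shock protein, rose by 2.41 in RC4 and 2.17 in RC8 on the log2 scale, and its distal share was 75.1%, 75.6%, 74.2% and 71.5%. Ftl1, the light chain of ferritin, had 563 RPM (NT), 659 RPM (AS), 1213 RPM (RC4) and 1341 RPM (RC8), and distal shares of 58.2% (NT, AS table), 61.7%, 59.0% and 68.2%. The RED of Ftl1 was 0.61 in RC8, larger than the median size of 0.48 over all close pairs, whereas those of Mt2 and Cryab in RC8 were 0.08 and −0.27. Of the NRF2 and metal response targets, 0 of 7, 0 of 7 and 0 of 6 members were called in AS, RC4 and RC8. With the shares of all close pairs given above, few calls or none would be found in a list this small, so that these counts show nothing particular to it. Their median REDs were −0.11, 0.20 and −0.04, and the gene level was at least 2-fold higher in 1, 2 and 4 of them.

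Single other genes linked to stress were called. Of the stress chaperones, 0 of 4, 0 of 3 and 1 of 4 members were called in AS, RC4 and RC8. For integrated stress response genes these were 0 of 2, 1 of 4 and 1 of 3. Over all close pairs, 2.58%, 4.23% and 6.39% were called lower and 4.10%, 8.56% and 16.3% higher. Lists this small are not set apart from these shares, and the genes below stand for no group. Maff, a small MAF transcription factor, had 78.1% distal reads (NT), then 91.7% (AS), 98.8% (RC4) and 94.4% (RC8). Its RED was 1.64, 4.64 ± 0.39 and 2.23, and in RC4 its proximal isoform changed by −2.49 and its distal isoform by 2.15. In RC4 the proximal PAS of Maff was under the listing limit of roughly 5% and was listed through NT. Nupr1, a stress-induced nuclear protein, had 5.09% in NT, 4.13% in AS and 0.439% in RC4, which gave a RED of −3.61 ± 0.47 while the gene level was 0.99 higher on the log2 scale. The distal PAS of Nupr1 was close to the listing limit of roughly 5% in NT. A share below that limit in RC4 was seen only because NT passed it. Hsp90b1, the HSP90 of the endoplasmic reticulum, had 55.3% in NT, 58.7% in AS and 75.1% in RC8. Among the cleavage and polyadenylation factors themselves, Cpsf7, a subunit of cleavage factor I, had 42.2% in NT, 52.9% in RC4 and 64.3% in RC8, with a RED of 1.31 in RC8. Of the 23 listed factors, 0 had a gene level at least 2-fold higher and 1, 1 and 0 at least 2-fold lower in AS, RC4 and RC8, which were Cpsf2 in AS with −1.15 and Wdr33 in RC4 with −1.09.

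Cytoskeletal members were called in both directions in RC4 and RC8, and matrix members were called higher where they were called. Among cytoskeletal members, 0 of 22 were called lower and 2 higher in AS, 3 and 4 of 19 in RC4, and 2 and 4 of 20 in RC8. Over all close pairs, 2.58%, 4.23% and 6.39% were called lower and 4.10%, 8.56% and 16.3% higher. A difference of the list from these shares was not tested. Kif21a, a kinesin whose PASs are 100 nt apart, had 72.1% (NT), 87.7% (AS), 87.9% (RC4) and 92.8% (RC8). Pfn1, the actin-binding profilin, had 82.8%, 90.5%, 94.1% and 95.1%. Acta2, smooth muscle actin, went the other way, with 91.6%, 88.0%, 80.1% and 78.6%. Of the 16 matrix and adhesion members in RC8, 5 were called higher and 0 lower, compared with 16.3% and 6.39% of all close pairs, although their median RED was −0.19. The 5 were Adam10, Col3a1, Lamb2, Mmp11 and Serpine2. Col3a1, a fibrillar collagen, had 77.2% (NT), 83.6% (AS), 88.1% (RC4) and 90.2% (RC8), while its gene level changed by −1.45 in RC4 and −1.79 in RC8. Serpine2, a protease inhibitor, had 79.3%, 81.0%, 79.4% and 94.7%.

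The ribosomal proteins on the list that were called were lower. Rpl36al, also a ribosomal protein, is not on that list and was called lower in RC4 and higher in RC8, with a RED of −1.83 and 1.16. In AS, Rpsa with 8.05% in NT and 4.15% in AS and Rps23 with 21.9% and 11.9% were called, of 11 members. In RC8, Rpl32 with 14.4% and 6.25% and Rps12 with 16.5% and 7.62% were called, of 12, and in RC4 0 of 13. The shares of all close pairs called lower were 2.58% in AS, 4.23% in RC4 and 6.39% in RC8. Their median RED was −0.05, −0.35 and −0.22 in AS, RC4 and RC8. Solute carriers had 1 lower and 4 higher of 24 in AS, 0 and 1 of 23 in RC4, and 4 and 4 of 23 in RC8. Of all close pairs, 4.10%, 8.56% and 16.3% were called higher in AS, RC4 and RC8. Mitochondrial respiratory genes had 0 calls of 16 in AS and of 18 in RC4, and 1 lower and 1 higher of 18 in RC8, where Ndufa4, a subunit of the respiratory chain, had 94.1% compared with 79.4% in NT. Among transcription genes, Gtf2b, the general factor TFIIB, had 83.9% (NT), 90.3% (AS), 97.1% (RC4) and 98.7% (RC8) and a RED of 3.89 ± 0.40 in RC8. Members of no list numbered 786, 761 and 753, with 20, 32 and 40 called lower and 28, 68 and 131 higher.

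Most of the larger lists that remain had calls in both directions. Over all close pairs, 2.58% (AS), 4.23% (RC4) and 6.39% (RC8) were called lower and 4.10%, 8.56% and 16.3% higher. The counts of these lists are not set apart from those shares. Ubiquitin genes had 1 lower and 2 higher of 32 members for AS, 0 and 3 of 30 for RC4, and 2 and 2 of 30 for RC8, where their median RED was −0.43. Nedd8, a ubiquitin-like modifier, was among the lower ones in RC8 and Ube2e1, a ubiquitin-conjugating enzyme, among the higher ones in RC4 and RC8. Membrane traffic genes had 0 lower and 1 higher of 30, 3 and 1 of 33, and 4 and 3 of 27, in the same order of comparisons. Cell cycle genes had 2 and 1 of 18, 1 and 2 of 16, and 3 and 4 of 16, and Trp53, the tumour suppressor p53, was called higher in RC4 and RC8. Its distal share was 9.32% (NT), 10.5% (AS), 22.4% (RC4) and 20% (RC8). Zinc finger proteins had 1 and 2 of 26, 2 and 3 of 25, and 1 and 1 of 26. For kinases and phosphatases these were 2 and 1 of 23, 1 and 1 of 17, and 2 and 2 of 20, and Pik3r4, the regulatory subunit of the class III PI3-kinase, was called higher in all 3 comparisons. Chromatin genes had 0 and 0 of 10, 0 and 2 of 10, and 2 and 1 of 11, and genes of RNA polymerase II transcription 0 and 2 of 17, 0 and 1 of 15, and 2 and 1 of 17.

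Genes of protein synthesis and turnover made up smaller lists. With 2.58% to 6.39% of all close pairs called lower and 4.10% to 16.3% higher, such lists have few calls. Their counts are not set apart from these shares either. Genes of the mitochondrial ribosome and import had 0 lower and 0 higher of 23, 1 and 0 of 25, and 2 and 1 of 23. Aminoacyl-tRNA synthetases had 0 lower in each comparison and 1 of 5, 1 of 8 and 2 of 7 higher, which were Ears2 and Iars2, both of mitochondria. Translation factors had calls in RC8 only among the 3 comparisons, with Eef1a1 and Eif4a2 higher of 9. Proteasome genes had 1 call each in RC4 and RC8, lower of 6 members and higher of 7, and both were of Psma4. Stress chaperones had 1 call, that of Hsp90b1 of 4 in RC8, and genes of the integrated stress response 1 lower of 4 in RC4, Nupr1, and 1 lower of 3 in RC8, Chac1, a glutathione-degrading enzyme. Glycolysis had 1 call, Eno1, an enolase, higher of 5 in RC8. Among growth and signal transcription factors, 1 of 6, 1 of 4 and 3 of 8 were called higher and 0, 1 and 1 lower.

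RED also differed by the poly(A) signals of the pair. In RC8, the median was 0.20 (0.11 to 0.27) for the 493 pairs with AATAAA or ATTAAA at the distal PAS only, with 20 called lower and 20.5% higher. It was 0.17 (0.04 to 0.31) for the 163 pairs with a signal at both PASs, −0.10 (−0.31 to 0.25) for 83 pairs with a signal at the proximal PAS only, and −0.01 (−0.12 to 0.07) for 341 pairs with neither, of which 35 were called lower and 41 higher. RC4 had the same order of its extremes, with 0.09 (0.03 to 0.14) for 510 pairs with a signal at the distal PAS only and −0.13 (−0.34 to 0.04) for 86 at the proximal only. The split by the proximal PAS alone gave 0.12 (−0.03 to 0.25) with and 0.10 (0.04 to 0.16) without a signal in RC8. The split by the signals of both PASs was added after the values had been seen. NT distal share differed between these classes as well, with medians of 43.6% for both, 28.6% for proximal only, 66.9% for distal only and 60.4% for neither in the RC8 table.

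**Figure D5:**
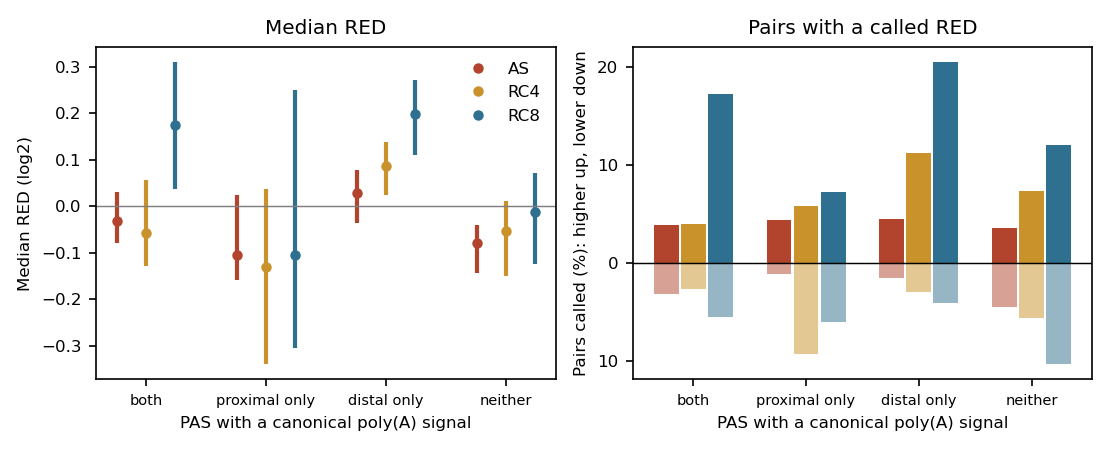
Left, median RED on the log2 scale with its 95% order-statistic interval for close pairs with AATAAA or ATTAAA within 40 nt upstream of both PASs, of the proximal only, of the distal only or of neither. Right, percent of pairs called higher (solid, upward) and lower (pale, downward). In RC8, 20.5% of the pairs with a signal at the distal PAS only were called higher and 4.06% lower, compared with 12% and 10.3% of the pairs with neither.

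RED by use of the sites in NT was uneven too. Of 3 equal ranges of NT distal share from 0 to 100%, pairs in the highest had 56 of 449 called higher (12.5%) and 20 lower in RC4, and 88 of 438 (20.1%) and 36 in RC8. Pairs in the lowest had 18 of 256 higher (7.03%) and 15 lower in RC4, and 36 of 255 (14.1%) and 18 in RC8. Those in the middle had 19 of 382 higher (4.97%) and 11 lower in RC4, and 52 of 387 (13.4%) and 15 in RC8. The share called higher thus did not rise steadily with the NT distal share. A RED is counted on a log scale, so a pair near 100% needs a small move of its share to be called. A PAS was listed if it held roughly 5% of the reads or more, and 75 pairs in RC8 had a PAS under 5% in 1 library, of which 46 were called higher and 13 lower. Such a pair entered the table through the library with the higher share. Where the floor of 3 isoform reads applied, in 1 pair of RC4 and 4 of RC8, the RED is a lower bound, and these are Lgmn, a lysosomal protease, in both and Gpr180, Tcp11l2 and Tlr2 in RC8.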

How the data were processed

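Total RNA of NIH3T3 cells was read by QuantSeq FWD in 4 conditions, with 1 library each. The QuantSeq REV libraries of these RNAs are not analysed here. The authors trimmed reads with bbmap, mapped them to mm9 with STAR (version 2.5.2a in the submitters' processing notes), allowing up to 20 positions per read, and ran MAAPER with PolyA_DB v3 on genes with at least 50 reads and PASs at 5% or more. The deposited gene tables give raw counts of reads in 2 columns per condition, whose meaning is not given in the sources used here. Their sum was used, and levels, read minimums and counting errors rest on it. The deposited PAS tables give, for NT and 1 treated library, the fraction of a gene's reads at each PAS. No label says which condition is NT. The first was taken as NT from the table names and the study's methods, and it is the one whose values recur in all 3 tables. All signs of RED rest on this. Their columns of P values, RED and RLD scores are the authors' own comparison and were not used.

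Isoform reads were gene reads times fraction. RED was the log2 distal over proximal ratio of the treated library minus that of NT. Its counting error on the log2 scale came from the Poisson variance of the 4 isoform read numbers. An isoform under 3 reads was set to 3. Levels (RPM) used the library's sum of reads over all genes. With 1 library per condition there is no test, and intervals (95%, Wilson for shares, order statistics for medians) and counting errors leave out the spread between cultures. An A tract was a run of 8 A from 15 nt upstream to 20 nt downstream of a PAS, or, in the 20 nt downstream, a run of 6 A or any window of 10 nt with 7 A. The scoring was tested on simulated data.

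Members and gene lists were chosen with earlier results of these data known. Genes were named by rule: the 4 lowest and the 4 highest REDs per comparison among pairs with at least 200 reads and shares of at least 5% in both libraries, the 8 members with most NT reads and the same pair in all tables, the member nearest to 0 among the 20 with most reads, called members of 23 lists, and the pairs next to 300 nt, of which 1 is not reported here. Mt2, Cryab, Ftl1 and the pairs at the floor were chosen after their values were seen, as were the split by the signals of both PASs, the groups by gene level and the split by ATTTA. Alternatives covered the fold, the read minimum, the floor, the distance, the NT values, the count columns, A tracts, scaling and the hexamer window. Python 3.11.15, pandas 2.3.3, numpy 2.4.6, scipy 1.17.1, pysam 0.24.0 and matplotlib 3.10.9 were used.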

Additional observations from a re-analysis of the deposited data

Results flagged for a closer look

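Of the close pairs, 5 were called in opposite directions in different comparisons. The difference between the comparisons was not tested, since each condition has 1 library.

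Psma4, an α-subunit of the proteasome, had a distal share of 14.2% (NT), 19.5% (AS), 6.06% (RC4) and 34.3% (RC8). Its RED was −1.36 in RC4 and 1.62 in RC8, on 2922 to 3076 reads per library. Rpl36al, a ribosomal protein whose proximal PAS lies in coding sequence, had 73.6% (NT, AS table), 78.5% (AS), 42.4% (RC4) and 85.9% (RC8), with a RED of −1.83 in RC4 and 1.16 in RC8. Tubg1, the γ-tubulin of the centrosome, had 86.9% (NT, AS table), 92.6% (AS), 73.2% (RC4) and 94.4% (RC8). The RED of Tubg1 was −1.255 in RC4, where its distal isoform was at 19.5 RPM compared with 50.2 RPM in NT, and 1.32 in RC8.

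Tchp, a keratin-binding protein also found at centrosomes, had the fewest reads of the 5, with 136 to 412 per library, and a RED of 1.27 in AS, −1.37 in RC4 and 1.83 in RC8. 2410089E03Rik had a RED of −1.26 in AS on 112 reads, and of 2.82 in RC8.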

How the results depend on the processing

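Median RED stayed within its interval under each alternative tried. Of the main values recomputed, 118 stayed close to the value above (counts within 1.5 times) and 28, all given here, did not. The median gene level of members in AS, close to 0, changed its sign with the scaling. A threshold of 1.5-fold gave 93 lower and 103 higher for AS, 110 and 151 for RC4, and 142 and 272 for RC8. Genes with the same pair in all 3 tables gave 16, 26 and 43 lower in AS, RC4 and RC8, by construction among fewer pairs. With NT fractions of the RC4 or RC8 table, 19 pairs were lower in AS, and for RC4 those of RC8 gave 30 lower, again among fewer pairs. Each count column alone gave 13 and 12 lower in AS, with fewer reads per pair. More close pairs were called higher than lower under every setting tried in each comparison.

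Gene levels depended on scaling and threshold. Scaled to the median gene, the median log2 level of members was 0.0283 in AS, compared with −0.0125 on total reads, and −0.0331 in RC4, and in RC4 64 members were higher and 62 lower. A minimum of 200 reads left 11 members lower in AS and 91 in RC4. At 1.5-fold, 8 were higher and 93 lower for AS, 77 and 358 for RC4, and 133 and 138 for RC8. In a window of 30 nt, 19.9% of proximal and 56.0% of distal PASs had AATAAA or ATTAAA.

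For Nid1, the NT share depended on the table, and its RED ranged from 2.49 to 2.70 in RC8 and from 2.81 to 3.02 in RC4. Depth limits pairs with few reads, whose counting error is largest, and the share of a read assigned to either of 2 sites under 300 nt apart has an error of its own that these files do not give. A lower limit of 100 nt left the same pairs. No paired analysis was possible because each condition has 1 library.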

Other observations

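Pdia6, Rpn1 and Manf had a higher distal share in both recovery libraries than in NT and a negative change of gene level. They were chosen after their values were seen and stand for no group of genes. Pdia6, a protein disulfide isomerase, had a distal share of 82.1% in NT, 94.7% in RC4 and 97.4% in RC8, and its gene level changed by −0.74 and −1.15 on the log2 scale. Rpn1, a subunit of the oligosaccharyltransferase, had 91.7%, 98.0% and 98.8%, with −0.29 and −0.74. Manf, a secreted protein of the unfolded protein response, had 74.4%, 93.5% and 94.0%, with −1.03 and −0.91, and its proximal isoform changed by −3.01 in RC4 and −2.99 in RC8 on the log2 scale.

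Deep pairs outside the named groups also moved. Rbbp4, a histone-binding protein, had 83.7% of its reads at the distal PAS in NT, 94.2% in RC4 and 91.8% in RC8. Srp14, a subunit of the signal recognition particle, had 10.8% in NT and 22.6% in RC8.

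Close pairs with ATTTA between both PASs were called higher more often than those without, in a split made after the values were seen. In RC8, 81 of 348 pairs with ATTTA (23.3%) and 95 of 732 without (13.0%) were called higher, and in RC4 43 of 347 (12.4%) and 50 of 740 (6.76%). In AS the counts were 15 of 351 (4.27%) and 31 of 771 (4.02%). By distance, the shares in RC8 were 26.2% with and 11% without ATTTA from 100 nt, 24.3% and 14.3% from 150 nt, and 17.7% and 16% from 200 nt. Stretches with ATTTA were poorer in GC, with 32.5% compared with 40.3% from 100 to below 150 nt in the RC8 table, and the part of base composition was not tested.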
